A study of Mus musculus with 2 samples.

Results

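The genes described here encode the 4 classical systems of axon guidance ligands and their receptors. They were taken by gene symbol from the RefSeq gene table of mm10 (GRCm38.p6), and no measured value entered the choice. The rule found 68 of 21887 protein-coding genes on nuclear chromosomes: 14 Eph receptor, 8 ephrin, 20 semaphorin, 9 plexin, 2 neuropilin, 4 netrin, 4 Unc5, 3 Slit and 4 Robo genes. Of these, 35 encode ligands and 33 receptors.

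The cells belonged to E14TG2a.4, a line of mouse embryonic stem cells that the labels give as male, of strain 129/Ola and from an embryo aged 3.5 days. Histone H3 trimethylated at lysine 4 (H3K4me3) was profiled by chromatin immunoprecipitation and sequencing (ChIP-seq) in 1 group of 2 biological replicates, and no treatment or genotype change is named in the labels. The data are the authors' peak lists, which hold 86781 peaks in replicate 1, 83750 in replicate 2 and 62128 in a replicated list drawn from both. Sequencing depth is unknown. With 1 group and 1 line, no difference between conditions could be tested, and both replicates share the line.

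Guidance ligands are secreted or sit on cell membranes and steer growing axons and migrating cells by attraction or repulsion. Ephrins act on Eph receptor tyrosine kinases, semaphorins on plexins with neuropilins as co-receptors, netrins on Dcc and Unc5 proteins, and Slits on Robo proteins. Most of these genes are known for their use in the developing nervous system and in blood vessels, and several Eph genes are also used in early embryos. H3K4me3 marks the starts of active genes. In embryonic stem cells it is also known at the CpG-rich promoters of many developmental genes that are not yet in use.

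Genes with a replicated peak less than 1 kb upstream or downstream of the 5′ end, or over it, are called marked here. The signal of a gene is that of its strongest such peak, given by the authors as ChIP over control. The domain width is that of the widest stretch of peaks less than 1 kb apart that reached this window. By this rule 59 of the 68 guidance genes were marked (86.8%), against 66.6% of the 21536 protein-coding genes analysed. Replicate 1 alone marked 59 and replicate 2 alone marked 58, a mean of 58.5 ± 0.707 (SD, n = 2), where the background was 66.9% and 66.8%. Ligands were marked in 30 of 35 and receptors in 29 of 33. The unmarked genes were Epha6, Plxnb3, Robo2, Sema3g, Sema4a, Sema4c, Slit1, Slit2 and Unc5a. In these lists a mark in few cells of the culture and a weak mark in all cells cannot be told apart.

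Promoter sequence differed widely among the members, and 8 starts, with and without the mark, are printed as examples. Each sequence is the 250 bases upstream of a RefSeq start (GRCm38.p6), 5′ to 3′ on the gene's strand, with every CpG in capitals. Epha2 (chr4:141300971-141301220, plus strand) had the strongest peak of all members, and Robo4 (chr9:37401722-37401971, plus strand) the weakest among marked members with a RefSeq start within 1 kb of the 5′ end. Plxnb3 (chrX:73756853-73757102, plus strand) and Robo2 (start near the 5′ end, chr16:75447294-75447543, minus strand) had no peak. The last 4 were chosen after their values were seen: the marked downstream starts of Robo2 (chr16:74411826-74412075, minus strand), Robo1 (chr16:72662899-72663148, plus strand) and Slit2 (chr5:47982905-47983154, plus strand), and the weakly marked, CpG-rich start of Epha5 (chr5:84417383-84417632, minus strand).
Epha2: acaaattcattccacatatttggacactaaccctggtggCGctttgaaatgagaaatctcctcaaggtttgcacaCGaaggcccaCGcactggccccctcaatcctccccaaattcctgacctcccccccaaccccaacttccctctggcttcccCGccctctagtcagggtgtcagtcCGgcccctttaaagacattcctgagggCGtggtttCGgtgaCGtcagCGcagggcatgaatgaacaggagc
Robo4: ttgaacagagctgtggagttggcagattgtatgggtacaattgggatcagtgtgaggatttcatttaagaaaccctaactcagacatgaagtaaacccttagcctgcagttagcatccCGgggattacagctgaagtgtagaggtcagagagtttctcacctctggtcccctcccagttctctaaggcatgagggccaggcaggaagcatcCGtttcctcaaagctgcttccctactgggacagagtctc
Plxnb3: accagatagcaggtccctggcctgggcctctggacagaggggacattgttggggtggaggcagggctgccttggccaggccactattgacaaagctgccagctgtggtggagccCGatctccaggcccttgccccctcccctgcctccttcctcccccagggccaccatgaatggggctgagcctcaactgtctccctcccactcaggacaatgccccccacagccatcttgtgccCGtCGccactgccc
Robo2, near the 5′ end: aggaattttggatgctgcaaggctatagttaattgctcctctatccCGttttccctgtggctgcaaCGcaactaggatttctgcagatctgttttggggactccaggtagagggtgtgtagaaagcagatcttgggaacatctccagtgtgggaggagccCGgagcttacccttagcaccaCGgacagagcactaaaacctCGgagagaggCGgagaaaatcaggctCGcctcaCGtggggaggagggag
Robo2, downstream start: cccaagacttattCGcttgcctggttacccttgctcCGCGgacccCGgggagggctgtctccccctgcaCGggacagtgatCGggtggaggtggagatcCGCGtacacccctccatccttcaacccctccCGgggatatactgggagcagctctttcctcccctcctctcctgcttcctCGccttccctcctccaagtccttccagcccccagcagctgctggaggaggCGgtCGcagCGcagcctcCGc
Robo1, downstream start: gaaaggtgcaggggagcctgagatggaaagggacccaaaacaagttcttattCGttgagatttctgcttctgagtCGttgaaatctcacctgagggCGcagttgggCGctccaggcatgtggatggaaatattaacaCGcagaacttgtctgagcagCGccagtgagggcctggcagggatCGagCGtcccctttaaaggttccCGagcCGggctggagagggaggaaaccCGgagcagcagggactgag
Slit2: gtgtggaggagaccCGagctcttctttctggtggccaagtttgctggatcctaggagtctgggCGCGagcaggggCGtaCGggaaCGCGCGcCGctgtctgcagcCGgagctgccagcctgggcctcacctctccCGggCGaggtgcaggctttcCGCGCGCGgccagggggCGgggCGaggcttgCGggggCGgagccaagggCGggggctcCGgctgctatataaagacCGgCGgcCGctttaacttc
Epha5: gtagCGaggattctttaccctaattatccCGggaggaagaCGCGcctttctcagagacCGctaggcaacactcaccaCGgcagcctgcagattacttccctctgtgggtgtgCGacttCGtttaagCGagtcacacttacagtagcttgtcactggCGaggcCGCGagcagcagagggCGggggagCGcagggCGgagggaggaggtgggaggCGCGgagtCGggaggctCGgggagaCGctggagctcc

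These windows held 9 CpG in Epha2, 2 in Robo4, 3 in Plxnb3, 8 and 14 at the 2 Robo2 starts, 11 in Robo1, 25 in Slit2 and 20 in Epha5. Epha2, with 9, had a signal of 70.7, whereas Epha5, with 20, had 15.7. Epha5 was picked by its value, and its summit lay 356 bp from the 5′ end of another coding gene, Gm42163. Over the 65 marked starts of members in the RefSeq promoter table, signal and the observed-to-expected CpG ratio of the 300 bases around the start had a Spearman's rho of 0.268, given as a description because starts share libraries and some share a gene.

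The mark was present at most guidance promoters, but few of them reached the highest signals of other marked promoters. The median signal of the 59 marked members was 33.4, against 43.0 for all 14343 marked genes. In the replicates' own lists it was 30.8 against 38.4 and 28.6 against 36.5, so the members lay below the other genes in each. Only Epha2 and Sema4d lay above the 75th percentile of all marked genes in the replicated list, 57.7, and the members' own 75th percentile was 41.4. The weak end did not differ in this way: 17 of 59 members lay under the 25th percentile of all marked genes, 23.4, and the members' own was 21.6. Another coding gene starts in the domain of 4 of 59 members but of 19.8% of all marked genes, and without these the medians were 33.4 and 39.0, a smaller gap. Above the median of all marked genes were 13 of 59 members in the replicated list, 13 of 59 in replicate 1 and 17 of 58 in replicate 2.

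**Figure D1:**
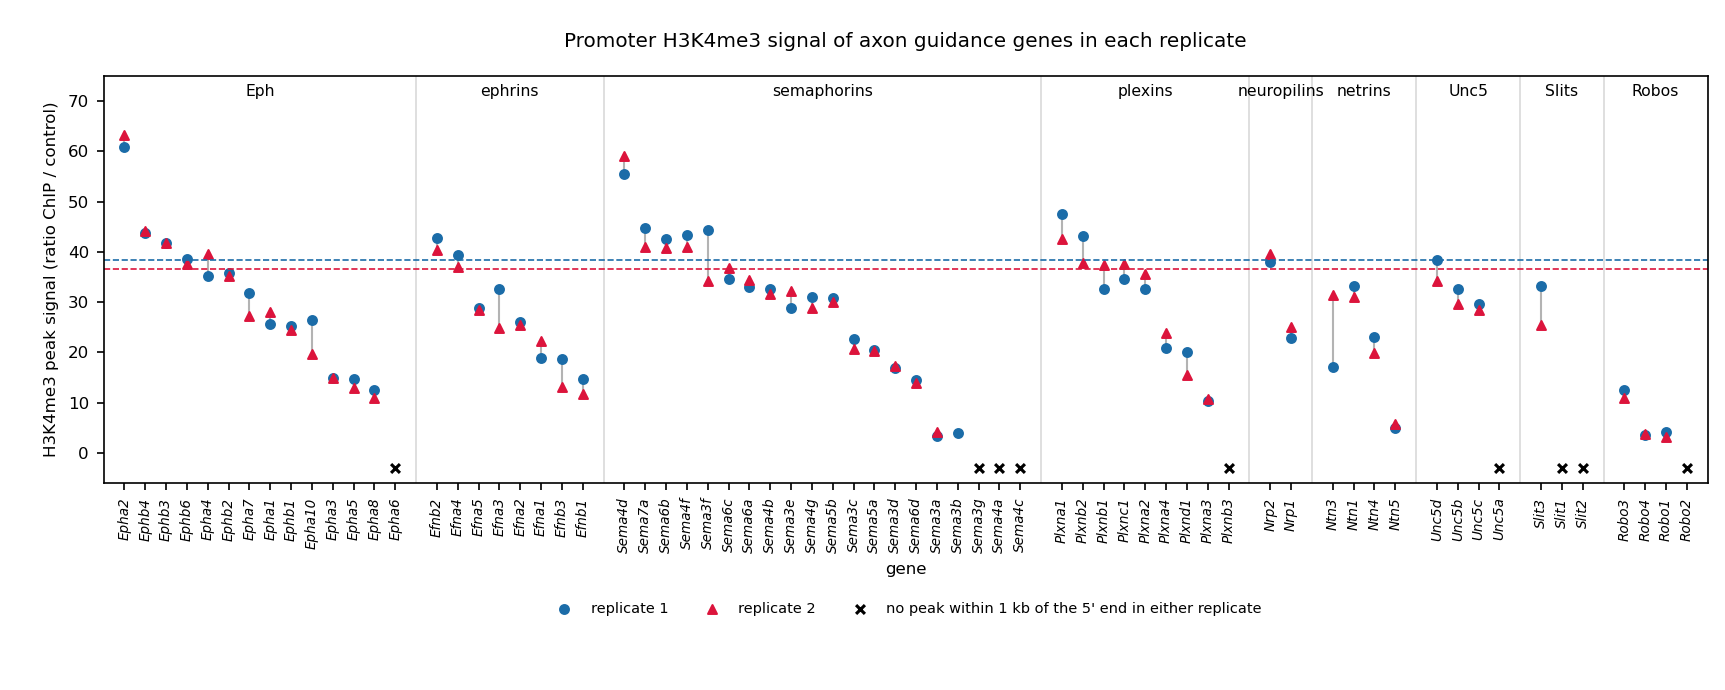
H3K4me3 signal of the strongest promoter peak (y axis, ratio of ChIP over control) of each of 68 guidance genes (x axis, by family and falling signal in the replicated list) in replicate 1 (circles) and replicate 2 (triangles); crosses below 0 stand for genes with no peak in either replicate, Sema3b has only a replicate 1 point, and dashed lines are the medians of all marked genes, 38.4 and 36.5. Most points lie under the dashed lines, with Epha2 and Sema4d highest.

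Domains were not short. The median domain of marked members was 2667 bp wide, against 2427 bp for all marked genes, with 2859 against 2305 bp in replicate 1 and 2602.5 against 2310.5 bp in replicate 2. Broad domains were frequent: 24 of 59 members lay above the 75th percentile of all marked genes, 3610 bp, and 12 under the 25th, 1677 bp. A domain of 10 kb or more was found at 4 of 59 members, Plxnb2, Epha2, Ntn1 and Ntn3, and at 2.71% of all marked genes. Coverage by peaks was higher than in all marked genes downstream and lower just upstream. At 2 kb downstream of the 5′ end 47.5% of marked members were covered by a peak, against 30.2% of all marked genes, and at 3 kb 32.2% against 16.8%. At 2 kb upstream the values were 13.6% and 12.2%. Nearer to the 5′ end members were covered less often, with 23.7% against 35.0% at 1 kb upstream. At 400 bp upstream it was 59.3% against 72.0%. Another coding gene starts within 1 kb of the 5′ end of 1 of 68 members but of 11.2% of all genes. The part of such neighbours in the upstream coverage was not tested. The median summit lay 397 bp downstream of the 5′ end in members and 274 bp in all marked genes. A shift of the peaks downstream and added width were not told apart. The median domain reached 1948 bp downstream and 746 bp upstream in members, and 1533 bp and 743 bp in all marked genes.

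**Figure D2:**
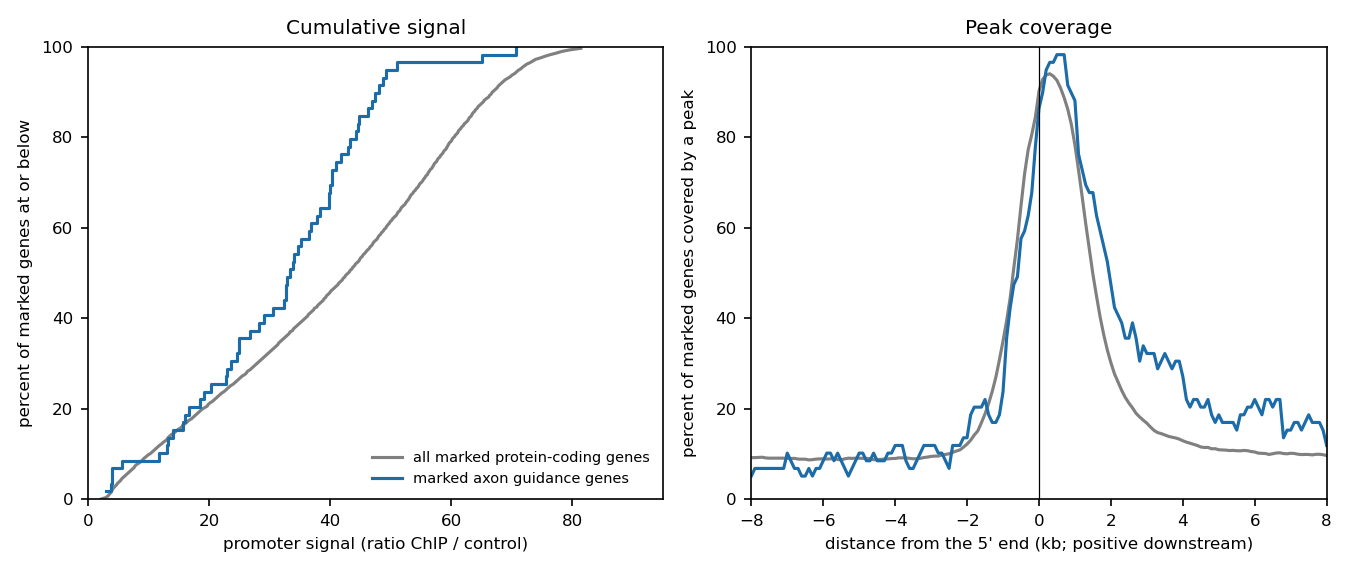
Left, percent of marked genes (y axis) at or below a promoter signal (x axis, ratio of ChIP over control) for 59 marked guidance genes (blue) and all 14343 marked protein-coding genes (grey). Right, percent of the same genes covered by a replicated peak (y axis) by distance from the 5′ end (x axis, kb); the blue line lies above the grey at 2 kb downstream, 47.5% against 30.2%.

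CpG content was compared because H3K4me3 is known to follow it. Promoters were classed from the mm9 sequence as high (HCP), intermediate (ICP) or low (LCP) in CpG. The class was taken at the 5′-most GENCODE vM1 start, which need not be the 5′ end used for the mark. Of the members 31 were HCP, 28 ICP and 9 LCP, which is 45.6%, 41.2% and 13.2%, against 37.7%, 26.1% and 36.2% of all classed genes. Marked were 27 of 31 HCP members (background 96.4%), 26 of 28 ICP members (86.0%) and 6 of 9 LCP members (27.7%). The unmarked HCP members, Sema4c, Slit1, Slit2 and Unc5a, had a peak at a vM1 start in the pooled mm9 list. Within the HCP class the marked members had a median signal of 36.8, against 51.3 for all marked HCP genes, and 0 of 27 exceeded that value. In replicate 1 the medians were 32.5 and 45.8, with 1 of 27 above, and in replicate 2 they were 31.5 and 44.0, with 0 of 27 above. Their domains were wider, at a median of 3686 against 2764 bp, with 17 of 27 above the HCP median. For marked ICP members the median width was 2173 bp, near the 2067 bp of all marked ICP genes. In the ICP class the median signal was 29.3 in members and 35.7 in all genes. The replicates gave 24.1 against 32.1 and 26.6 against 30.3 for that class, so within both classes the members lay lower in each replicate. Over the 75 promoter windows of members with an entry, the motif GGGCGG, the core of a GC box, searched on both strands, was in 53 (70.7%, against 46.2% of all coding windows of the same 300 bases), and TATAAA, the core of a TATA box, also on both strands, was in 2 (2.67%, against 12.6%). The windows with TATAAA were those of Efnb2 and Slit2. Member windows were also richer in GC, with a median of 64.3% against 56.3% in all coding windows. Their median CpG ratio was 0.659 against 0.567. The part of base composition in the motif shares was not tested.

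Eph receptors are tyrosine kinases of the cell surface, and 13 of 14 were marked. Epha2, known in early embryos and stem cells, led all 68 genes. It had a signal of 70.7 in the replicated list, with 60.9 in replicate 1 and 63.2 in replicate 2, above 94.4% of all marked genes. Its domain spanned 15774 bp (16598 and 17462 bp in the replicates), nearly all of it downstream, as it reached 299 bp upstream and 15474 bp into the 28.2 kb gene. The next Eph gene, Ephb4, had a signal of 49.2 in the replicated list.

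The EphB genes were all marked, and 4 of the 5 lay close together. Ephb4 had 43.8 and 44.0 in replicates 1 and 2, Ephb3 had 41.8 and 41.7, Ephb6 had 38.7 and 37.6, and Ephb2 had 35.7 and 35.2. Ephb1 stood lower at 25.2 and 24.4. The peak at Ephb6 began 455 bp downstream of the 5′ end and lay over its RefSeq start 1677 bp downstream. Domains of Ephb3 (7416 bp) and Ephb4 (6673 bp) were broad, and that of Ephb1 (2019 bp) was not.

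Marked EphA genes other than Epha2 all lay below the median of all marked genes in the replicated list, 43.0. Epha4, used in motor and cortical axons, had 35.2 and 39.6 and a domain of 5579 bp. Epha7 had 31.8 and 27.2, Epha1 had 25.7 and 28.0, and Epha10 had 26.4 and 19.7. The Epha10 domain also holds the 5′ end of Maneal, another coding gene that starts 592 bp away. The summit lay 144 bp from the RefSeq start of Epha10 and 991 bp from the 5′ end of Maneal. The domain of Epha5 likewise holds the 5′ end of a coding gene, Gm42163, which was 356 bp from the summit, while the RefSeq start of Epha5 was 1000 bp from it. Lowest were Epha3 (14.9 and 14.8), Epha5 (14.7 and 13.0) and Epha8 (12.5 and 10.9), which lay below the 4 EphB genes above in both replicates. In the replicated list the marked EphA genes had a median of 27.5 and the EphB genes 43.3. Epha8 and Epha5 have some of the most CpG-rich windows of the members, with ratios of 1.06 and 1.00. Inside Epha3, 6.91 kb downstream of its 5′ end, a second peak with a signal of 23.4 was stronger than the promoter peak, at 16.7.

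Ephrins, the membrane-bound ligands of the Eph receptors, were marked in 8 of 8, with a median signal of 30.7 and the broad median width of 4813.5 bp. Efnb2, known from arteries and the hindbrain, was highest at 42.8 and 40.4, and its domain of 7106 bp was shorter in the replicates, at 5511 and 3696 bp. Efna4 followed at 39.4 and 37.0. Efnb1, on the X chromosome, was the lowest in each replicate, at 14.7 and 11.7, although its range overlapped that of Efnb3, at 18.6 and 13.2. The neighbours Efna1, Efna3 and Efna4 stand on the same strand of chromosome 3, and their 5′ ends are 42.0 and 15.1 kb apart. Their signals were higher in that order, from 18.8 and 22.3 at Efna1 through 32.5 and 24.9 at Efna3 to those of Efna4. In replicate 2 the gap between Efna1 and Efna3 was smaller than that between the replicates at Efna3. The other A-type genes, Efna5 (28.9 and 28.5) and Efna2 (25.9 and 25.4), lay between. The Efna5 peak had its summit 1495 bp upstream of the 5′ end, and its window had the highest CpG ratio among the 59 members with a table entry, 1.10.

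Semaphorins are the largest ligand family, and 17 of 20 were marked. Over 6 marked genes of the secreted class 3, signals had a median of 22.1 and widths one of 1387.5 bp. Over 11 marked genes of the membrane-linked classes 4 to 7, these medians were 37.8 and 2951 bp. CpG class differed too, with 0 HCP, 3 ICP and 4 LCP genes in class 3. Classes 4 to 7 held 7 HCP, 5 ICP and 1 LCP. The part of CpG class in the lower medians of class 3 was not tested. Among the class 3 genes only Sema3f, at 44.7, exceeded the median of all marked genes in the replicated list, 43.0. It had 44.3 and 34.2 in the replicates. Sema3e had 28.8 and 32.2, Sema3c 22.6 and 20.7, and Sema3d 16.9 and 17.4. Sema3a, the classical repellent of sensory axons, had only 3.43 and 4.15, and its peak of 510 bp began 503 bp downstream of the 5′ end. These values hold for the 5′ end only. The RefSeq start of Sema3a, 272 kb downstream, had no peak within 1 kb. A stronger peak, of 10.8 in the replicated list, lay inside the gene 275 kb downstream. Sema3b was the weakest marked gene, with a signal of 3.02 in the replicated list and 3.92 in replicate 1, and no peak passed in replicate 2. It was also lost at a q-value under 1e-05, and Sema3a was lost in a window of 500 bp. Sema3g had no peak in either replicate.

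Among the membrane-linked semaphorins, Sema4d was the strongest ligand gene of all. It had 65.1 in the replicated list and 55.5 and 59.1 in the replicates, in a domain of only 2170 bp. Sema4d is known from immune cells as well as from axons. Next were Sema7a, the lipid-anchored member (44.8 and 40.9), Sema4f (43.3 and 40.9) and Sema6b (42.6 and 40.7), which the replicates did not separate. Sema4f had a domain of 917 bp, narrower than all but 6.42% of marked genes, beside a signal above 56.1% of them. Sema6c (34.5 and 36.8), Sema6a (33.0 and 34.5), Sema4b (32.5 and 31.5), Sema4g (31.1 and 28.8) and Sema5b (30.8 and 30.0) formed a middle group. The domain of Sema4b was 9981 bp wide, with 8517 and 9857 bp in the replicates. Sema5a had 20.6 and 20.2, and Sema6d was lowest at 14.4 and 14.0. The peak at Sema6a covered none of the 279 bp next to the 5′ end, and its summit lay 2433 bp downstream.

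Plexins, the main semaphorin receptors, were marked in 8 of 9, and their median of 39.1 was the highest of the 9 families in the replicated list. In replicate 1 it was 32.5, below the 33.3 of the single marked Slit gene. Plxna1 had 47.5 and 42.5, but the 5′ end of Gm40415, a further coding gene, lies in its domain. Plxnb2 had 43.1 and 37.8. Its domain of 17523 bp was the widest of all members, made of 8 peaks, and fell to 11232 and 11484 bp in the replicates' own lists. Plxnc1 (34.5 and 37.6), Plxnb1 (32.5 and 37.3) and Plxna2 (32.5 and 35.5) differed by less than their replicates. Plxna4 had 20.8 and 23.8, Plxnd1, known from blood vessels, 20.1 and 15.5, and Plxna3 10.3 and 10.6. Plxnb3 was unmarked in every list, and the nearest peak was 18502 bp from its 5′ end.

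Both neuropilin genes, whose products serve as co-receptors for class 3 semaphorins and for VEGF, were marked in both replicates. Nrp2 had 37.9 and 39.6 in a domain of 6300 bp, above Nrp1 with 22.8 and 25.1 in 3552 bp. The groups of replicate values did not overlap. A lncRNA and the miRNA gene Mir1903 have 5′ ends in the Nrp1 domain.

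**Figure D3:**
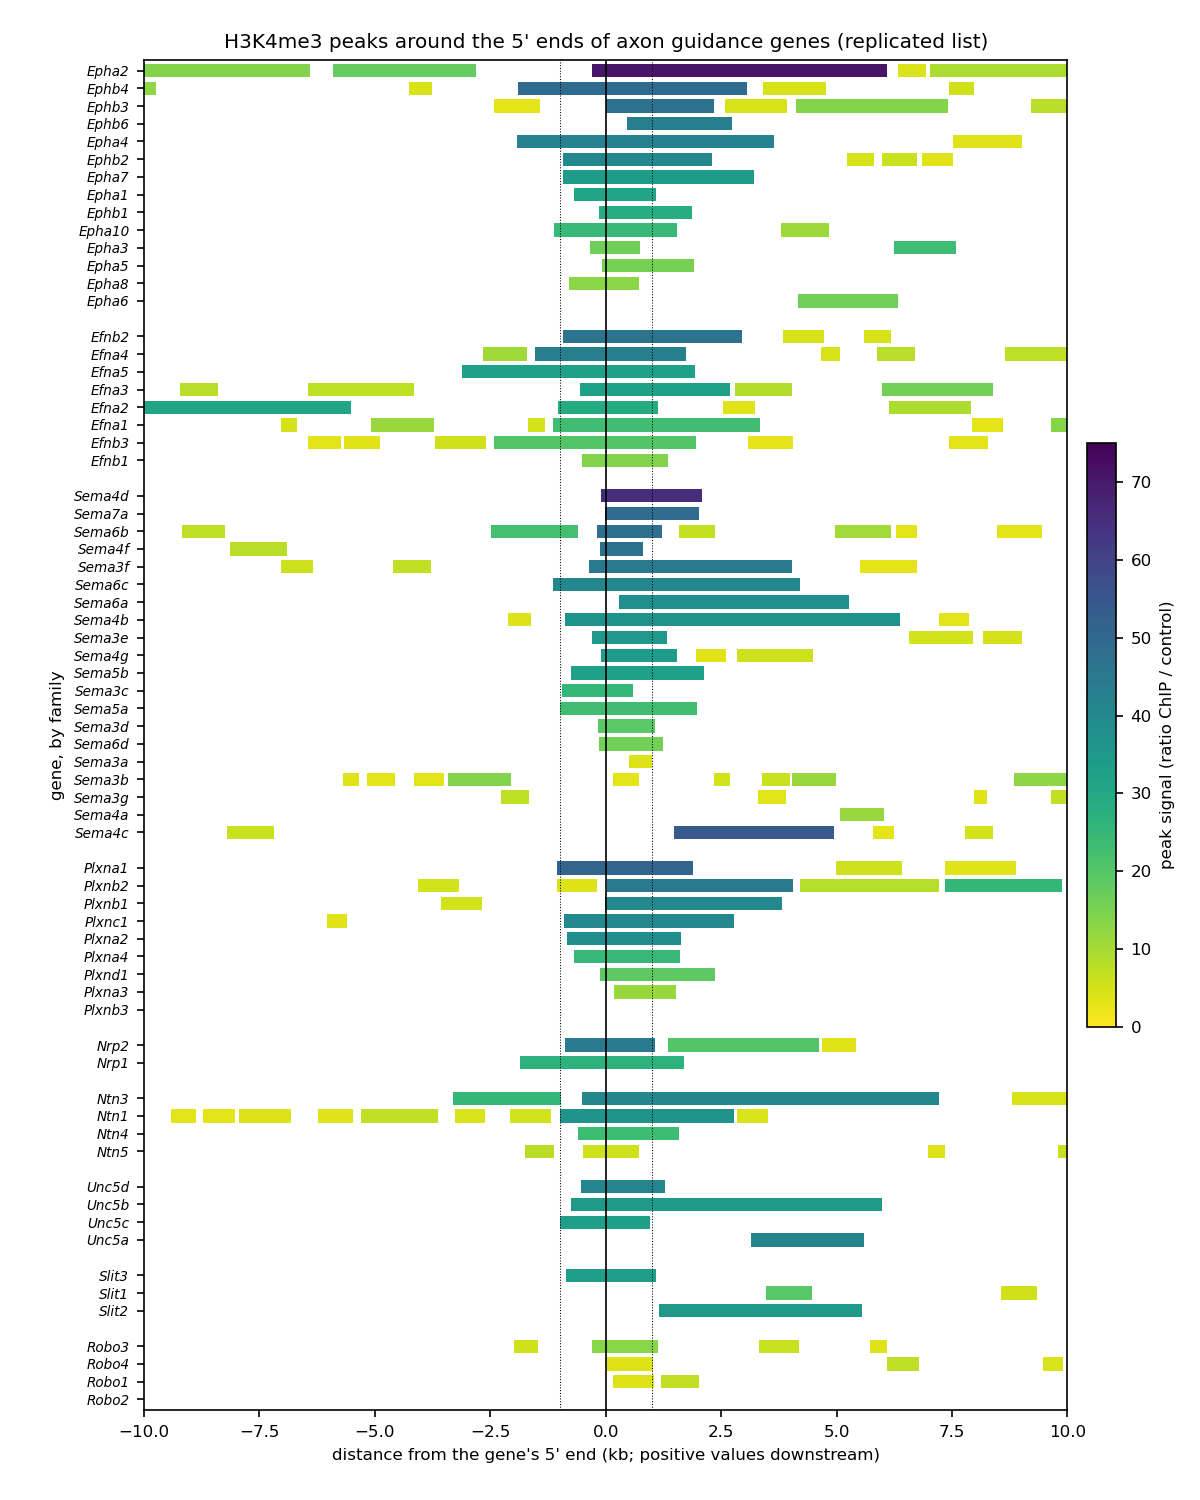
Replicated H3K4me3 peaks up to 10 kb away from each guidance gene's 5′ end (x axis, kb, downstream to the right; y axis, genes by family and falling signal), coloured by signal as a ratio of ChIP over control; dotted lines mark 1 kb on either side. Plxnb2, Epha2, Ntn1 and Ntn3 show domains of 10 kb or more, and at Sema4c, Slit2, Unc5a and Epha6 a peak lies downstream of the window.

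The 3 X-linked members, Efnb1, Plxna3 and Plxnb3, were the lowest ephrin, the lowest marked plexin and the unmarked plexin. Marked were 2 of 3, against 49.4% of X-linked and 68.1% of autosomal genes. These 2 had 14.1 and 11.6 in the replicated list, against a median of 33.8 for the 57 marked autosomal members. Over all genes, marked X-linked genes had a median of 24.2 and marked autosomal genes 43.9. The labels give the cells as male, with a single X chromosome. The part of chromosome copy number in these values was not tested.

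Netrins, secreted relatives of laminins, were marked in 4 of 4, with either a broad or a short domain. Ntn1, the floor plate attractant, had 33.3 and 31.1 in a domain of 12928 bp (12779 and 11377 bp in the replicates). It consisted of 9 peaks and, unlike most members, reached farther upstream (9418 bp) than downstream (3509 bp). Ntn4 had 23.0 and 19.9 in 2176 bp. Ntn3, with a domain of 10542 bp, had the largest difference between replicates of all members, 17.1 in replicate 1 and 31.3 in replicate 2, a fold of 1.83. The summit of its peak lay 4101 bp downstream of the Ntn3 5′ end and 276 bp from the 5′ end of Tbc1d24, a neighbouring coding gene in the same domain, so the value cannot be read as that of Ntn3 alone. Ntn5 had only 4.89 and 5.70, and its domain was 2467 bp in the replicated list, 585 bp in replicate 1 and 2496 bp in replicate 2.

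The Unc5 genes, receptors for netrin-driven repulsion, were marked in 3 of 4. Unc5d had 38.4 and 34.2, Unc5b 32.5 and 29.5, and Unc5c 29.6 and 28.5. Width set Unc5b apart, with 6726 bp against 1964 bp at Unc5c and 1807 bp at Unc5d, and the replicates gave 6671 and 7799 bp for it. All 4 Unc5 promoters were HCP at the 5′-most vM1 start on mm9. Unc5a had no peak within 1 kb of its mm10 5′ end.

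Slits, secreted repellents of midline cells, were marked at the 5′ end in 1 of 3, and Robos, their receptors, in 3 of 4 with the lowest median of all families, 3.95. That median holds for the 5′ ends only, as Robo1 had 63.4 and Robo2 22.4 at RefSeq starts far downstream. Slit3 was the marked Slit gene, with 33.3 and 25.4, while Slit1 and Slit2 were unmarked at the mm10 5′ end. All 3 are HCP at the 5′-most vM1 start on mm9, which need not be that 5′ end. Robo3, known for commissural axons, had 12.5 and 11.0. Robo1 had 4.16 and 3.18, and Robo4, an endothelial member, 3.54 and 3.75. Robo1 exceeded 1.57% of all marked genes and Robo4 1.83%, and the pair differed by less than their replicates. Robo3 and Robo4 are neighbours on chromosome 9 with 5′ ends 31.5 kb apart.

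For 8 members a downstream start carried a stronger peak than the 5′ end or the only one. The 5′ end is the outermost end of the gene in the table, whose entries for Robo1, Epha6 and Unc5a include predicted transcripts, so no peak there does not mean none at the RefSeq start. In all, 59 members had 75 starts in the RefSeq promoter table, of which 65 were marked. With a peak at the 5′ end or at any of these starts, 65 of 68 members were marked, against 69.5% of all genes. This alternative was chosen after the data had been seen. Epha6, Robo2, Sema4a, Sema4c, Slit2 and Unc5a were gained, so only Plxnb3, Sema3g and Slit1 stayed without a peak. Slit1 has no entry in that table, and its nearest peak, with a signal of 19.6, began 3462 bp downstream of the 5′ end. In the pooled mm9 list, at any GENCODE vM1 start, 66 of 68 were marked (background 68.4%), Slit1 among them, and only Plxnb3 and Sema3g were not.

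Robo1 differed most between its starts. At the 5′ end of this 1020 kb gene the signal was 3.83. At the RefSeq start 636 kb downstream, whose upstream bases are printed above, it was 63.4, with 55.3 and 55.7 in the replicates. That value exceeds those of all members at their 5′ ends except Epha2 and Sema4d. Robo2, of 1555 kb, had no peak at its starts 150 bp and 355 kb downstream, and 22.4 (22.3 and 18.4 in the replicates) at the start 1036 kb downstream.

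At Slit2, the start 1864 bp downstream had 34.5 (30.1 and 31.1), a value near that of Slit3. Unc5a had 41.3 (37.0 and 35.8) at a start 4260 bp downstream, the highest of the 4 Unc5 genes in the replicated list and within the replicate spread of Unc5d. Sema4c had 54.2 (50.9 and 44.6) at its starts 2318 and 3142 bp downstream, which share a peak. Epha6 had 16.4 (16.2 and 13.5) at 5380 bp and joined Epha3, Epha5 and Epha8 at the low end of the Eph genes. Sema4a had 11.6 at the start 5421 bp downstream and no replicated peak at the others.

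Sema4b also had a stronger peak downstream, with 36.8 at the 5′ end and 54.9 at a start 11718 bp downstream. At others the 5′ end was the stronger. Sema4d had 65.1 at the 5′ end and 3.88 and 4.03 at starts 36995 and 54232 bp downstream, with no replicated peak at a start between them. Sema6b had 48.0 at the 5′ end and 10.5 at the start 6491 bp downstream. Sema6d had 16.0 at its 5′ end, none at the start 564 kb downstream, and a peak of 46.0 inside the gene 520 kb downstream, over 1 kb from every mm10 start and 5′ end used here. That peak spans chr2:124609569-124611175 and was the strongest of 275 such peaks inside members; it was noticed after its value was seen.

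**Figure D4:**
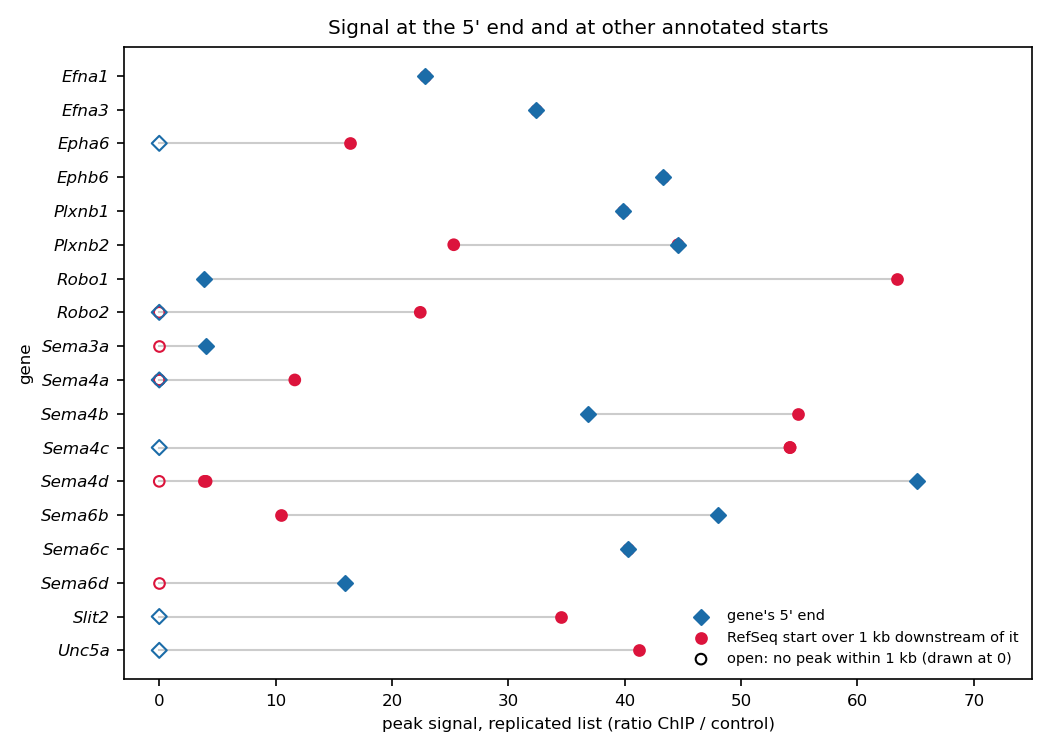
Signal of the strongest replicated peak (x axis, ratio of ChIP over control) at the 5′ end (blue diamonds) and at RefSeq starts over 1 kb downstream (red circles) of the guidance genes that have such starts (y axis); open symbols at 0 have no peak within 1 kb, and symbols on top of each other share a peak. Robo1 moves from 3.83 to 63.4 and Sema4d from 65.1 to 4.03 or lower.

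The window bears on the unmarked calls. Among marked members, 51 of 59 had a peak over the 5′ end itself, near the share of 90.2% over all marked genes, and the farthest peak began 503 bp away, at Sema3a. Outside the window, the nearest peaks were 1155 bp away at Slit2, 1473 bp at Sema4c and 1658 bp at Sema3g, and these 3 genes were marked in a window of 2 kb, which gave 62 of 68 against 68.6% of all genes. A window of 500 bp gave 58 of 68 against 65.0%, and a q-value under 1e-05 gave 58 of 68 against 66.2%. With the summit required inside the 1 kb window, the count fell to 48 of 68 against 61.4% of all genes, a smaller excess.

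The replicates ranked the members alike. Over the 58 members marked in both, the Spearman's rho of the signals was 0.943, a description, since the points share libraries and controls within each replicate. Replicate 1 was higher for 37 of 58, like the 63.7% of all genes, with a median ratio of 1.03, against 1.04 for all genes. A fold over 1.5 between replicates was found at Ntn3 alone, 1 of 58, against 3.36% of all genes. The next largest were Efnb3, Epha10, Slit3 and Robo1, with folds of 1.41, 1.34, 1.31 and 1.31.

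Other genes of guidance signalling were listed by function, with earlier results of these data known. They were marked in 48 of 54, against 66.6% of all genes, with a median of 40.2 against 43.0. The surface partners among them varied. Dcc, the netrin receptor, had 5.63 and 4.92, whereas its relative Neo1 had 51.4 and 50.3. Cytoplasmic mediators ranged from the kinase Fes (10.3 and 11.8), lowest of those marked, to the kinase Abl1 (61.7 and 65.5), highest in the replicated list at 72.2. In both replicates Abl1 exceeded every member. Rock1 (56.8 and 56.7), Pak1 (57.3 and 56.2) and the Robo effector Srgap2 (62.6 and 57.4) exceeded every member other than Epha2 and Sema4d in both. In replicate 1 they also exceeded Sema4d (55.5), and Srgap2 exceeded Epha2 (60.9). Abl1, Rock1, Pak1 and Srgap2 were picked after their values were seen. Dscaml1, Ntng1, Ntng2, Lrrc4c, Mical3 and Ngef were unmarked, and all 6 were marked in mm9 at any start.

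All 8 stem cell markers were marked, with signals from 37.7 at Nanog to 69.4 at Pou5f1. Nanog differed between replicates, with 23.9 and 47.9. Of 8 fibroblast markers, which feeder cells would carry, 4 were marked at 5.75 to 23.4, and Col3a1, Acta2, Postn and Lum had no peak. Of 8 neuron markers 6 were marked at 18.3 to 43.3, and Rbfox3 and Dcx had none. Stmn2 (43.3) and Map2 (42.1) stood above Nanog and Dppa4 (39.8) in the replicated list, so stem cell and neuron signals overlapped there. The replicates gave 30.4 and 28.1 for Stmn2 and 40.9 and 33.9 for Map2, against 39.6 and 39.1 for Dppa4. In replicate 2 every neuron marker lay below Dppa4, the lowest stem cell marker there. In replicate 1 the lists overlapped, with Map2 above Dppa4 and Stmn2 above Nanog, the lowest stem cell marker in that replicate. Domains had a median width of 14197 bp over the stem cell markers and 2952.5 bp over the marked neuron markers. The part of other cell types in the members' values was not tested.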

How the data were processed

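H3K4me3 ChIP-seq peak lists of 2 replicates were used. Their depth is unknown. The aligner and peak caller were not given in the sources used here. Per the deposited file descriptions, each replicate's mm10 list derives from its alignments and 1 control file, the pooled list from both replicates, and the replicated list from these 3. All 62128 replicated peaks were identical to pooled peaks, so replicated signals are those of the pooled data and can exceed both replicates. Signal, as deposited, is a ratio: over the control on mm10, over an unnamed denominator on mm9. The deposited mm10 lists also give −log10 of a p-value and q-value per peak, and the deposited mm9 lists the p-value and q-value themselves. Members and gene lists were chosen with earlier results of these data known.

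With Python 3.11.15, numpy 2.4.6 and pandas 2.3.3, peaks were assigned to the 5′ end of 21536 protein-coding genes. Strand came from the RefSeq promoter table (17492 genes, 59 members) or GENCODE vM1 (4044), and 351 genes without strand were left out. CpG classes came from 500 bp windows on mm9, placed between 1300 bp before and 200 bp after the 5′-most vM1 start (HCP: CpG ratio over 0.75 and GC over 55%; LCP: no ratio over 0.48). No test between genes was made; counts and medians stand beside those of all genes. Peak assignment was tested on simulated peaks. Members given in full were the highest and lowest of each family, the widest 5, the 5 with the largest replicate ratio and every unmarked gene; other members are given by signal.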

Additional observations from a re-analysis of the deposited data

How the results depend on the processing

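The count of marked members, 59 of 68, stayed between 48 (summit required inside the window) and 66 (pooled mm9 list), within 1.5 times in all alternatives run. The median signal of 33.4 was 28.6 to 30.8 in single replicates and 17.2 in the pooled mm9 list, whose ratio has another scale. The median width of 2667 bp was 2602.5 to 2859 bp in single replicates, 3293 bp in the pooled mm10 list, 3600 bp in the pooled mm9 list, 2293 bp without joining and 3552 bp with joining within 3 kb. The width thus depended on joining and pooling. The mm9 alternative changed list, starts and build together, so the part of each was not tested. The lists hold no value below the authors' threshold. No paired analysis was possible because there is 1 group.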
